A study of Sus scrofa with 21 samples.

Results

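RNA from the whole blood of pigs of the DD and LW groups was read at 5 probes, out of 60306 spots that were not controls. They were chosen for interferon-induced transmembrane (IFITM) genes, for their locus or for a large difference between the breeds. Of the 5 probes, 3 were chosen by name. A_72_P172311 carries the name IFITM1, A_72_P380763 is described by its match to a bovine interferon-induced transmembrane protein, and O7812 carries the name Ifitm2. The other 2 were chosen with their difference between the breeds known. A_72_P402708 names LOC100519082, a gene of the IFITM cluster on chromosome 2. A_72_P254237 names an mRNA clone from pig ovary and has no gene name in the scanner files. Whether A_72_P254237 lies in the IFITM cluster was not settled here. For these 2 probes the breed difference is given as a description and carries no test.

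The breeds are represented by 10 DD pigs (5 litters) and 11 LW pigs (6 litters), all bled at 60 days of age and given a standard diet without restriction. DD pigs (SLAdd in the labels) are minipigs of an inbred line that is homozygous at SLA, the major histocompatibility complex of the pig, and LW pigs are Large White pigs, a commercial breed that served as the control. No pig received a treatment or carried a transgene. Each pig is a separate animal with 1 array on 1 of 3 chips, but siblings share a sow, and all DD pigs belong to 1 inbred herd, so that breed and herd cannot be told apart. Values are log2 intensities, background corrected and quantile normalized between arrays, and a log2 FC is the fitted difference of DD minus LW pigs with chip and sow in the model. In whole blood, fewer cells of a type and less RNA per cell cannot be told apart.

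IFITM proteins are small membrane proteins that keep enveloped viruses from fusing with the cell. Interferons raise their expression through factors such as STAT2 and IRF9, which bind response elements in their promoters. IFITM1 resides mostly at the cell surface, where it associates with tetraspanins such as CD81 and CD9 and, on B cells, with CR2. IFITM2 and IFITM3 act mostly in endosomes, and IFITM5 is known from bone.

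The probes are 60 bases long, and their sequences are given because the values of the cluster depend on which sequence was read. They are in lower case, and capitals mark the 60 bases that a further spot of the array repeats letter by letter.
A_72_P172311: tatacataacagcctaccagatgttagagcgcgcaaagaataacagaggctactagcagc
A_72_P380763: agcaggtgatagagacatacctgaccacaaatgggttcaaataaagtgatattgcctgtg
A_72_P402708: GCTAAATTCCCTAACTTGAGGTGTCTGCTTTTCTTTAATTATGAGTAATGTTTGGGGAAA
A_72_P254237: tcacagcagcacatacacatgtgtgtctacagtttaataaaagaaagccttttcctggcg
O7812: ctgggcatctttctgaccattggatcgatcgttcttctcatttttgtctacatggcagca
The 5 sequences differ throughout. The longest run of letters that any pair of them shares on the same strand is 8 bases, between A_72_P254237 and O7812. GC content ranged from 35.0% in A_72_P402708 to 45.0% in A_72_P172311 and O7812. Besides the repeated spot, the longest run that a member shares with any other probe of the array is 16 bases, which A_72_P254237 shares with the reverse strand of A_72_P415173. The scanner files give the probes no genome position.

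In the RefSeq annotation of the build Sscrofa11.1, the cluster lies near the start of chromosome 2. IFITM5 spans 107035 to 109116, IFITM1 spans 124095 to 125495, IFITM3 spans 128658 to 129736 and LOC100519082 spans 152490 to 154732. IFITM10 lies apart, from 1166975 to 1183309 of the same chromosome. No probe has IFITM3, IFITM5 or IFITM10 as its gene name in the scanner files, so no value is given here under these 3 names. The study mapped the probes to the genome anew and uses the names IFITM1 and IFITM3. A_72_P402708 and A_72_P254237 may be the sequences that bear them there. The study's log2 FC for IFITM3 equals the −10.69 of A_72_P254237 here. Its log2 FC for IFITM1 lies between the 4.13 of A_72_P402708 and the 4.09 of the repeated spot. That of A_72_P172311 here is 0.69. Names here are those of the scanner files, and IFITM1 stands for A_72_P172311 alone. A_72_P172311 and A_72_P402708 differ in gene name but list an Ensembl transcript in common, so that the names IFITM1 and LOC100519082 do not separate the probes as cleanly as their sequences do.

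A_72_P402708, the probe of LOC100519082, was higher in DD pigs. The scanner files describe its product only as an uncharacterized protein. Among the 10 DD pigs its log2 intensity was 15.03 at the lowest, 15.76 at the median and 16.80 at the highest. The LW pigs fell at separate levels. LW_12 was at 9.05, LW_05 at 9.14, LW_15 at 9.23, LW_02 at 9.24, LW_14 at 9.51 and LW_22 at 9.67. LW_24 was at 14.02, LW_07 at 14.18, LW_18 at 14.43, LW_04 at 14.69 and LW_09 at 14.73. No LW pig lay between 9.67 and 14.02, a gap of 4.35 on the log2 scale, whereas the largest gap between neighbouring DD pigs was 0.54. All 10 DD pigs were above all 11 LW pigs, as at 0.104% of the 45228 probes tested, and the rule had used this contrast.

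The mean of A_72_P402708 was 15.77 ± 0.56 (SD, n = 10) for DD against 11.63 ± 2.68 (SD, n = 11) for LW, with a log2 FC of 4.13 (SE 0.78). That SE rests on a sow correlation common to all probes, although most LW siblings were closely alike at this probe. On litter means the log2 FC was 4.35 (SE 0.95). Only 1 probe of the 45228 had a higher log2 FC, at 4.57, and it is named TOR3A. No LW pig was near the LW mean, so that the fold change describes no single LW pig. By chip, the breeds differed by 3.81, 5.26 and 3.05 on chips 1, 2 and 3, and without chip 2 the log2 FC was 2.76. The probe was well above background on all 21 arrays. In the processed signal before normalization between arrays, DD pigs ranged from 26793 to 113846, and LW_18, at 27521, lay above DD_08, the lowest DD pig.

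The repeated spot gave the same picture from its own place on the array. It differed from A_72_P402708 by at most 0.17 on the log2 scale on any of the 21 arrays, with a median difference of 0.09. Its log2 FC was 4.09 (SE 0.78), and the gap among LW pigs lay between 9.81 and 14.14. The pair of spots shares 1 sequence and 1 labelled RNA per pig, so that it measures the error of the array and not of the animals.

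The levels of LOC100519082 in LW pigs largely followed the litters. Siblings LW_04 and LW_09 differed by 0.05, LW_05 and LW_15 by 0.10, LW_14 and LW_22 by 0.17, and LW_07 and LW_18 by 0.26. The exception was the litter of LW_12 and LW_24, whose values of 9.05 and 14.02 differed by 4.97. LW_02 had no sibling among the arrays. In the 5 DD litters, siblings differed by 0.22 to 1.09.

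A_72_P254237 had the lowest log2 FC of the 45228 probes. In DD pigs its log2 intensity was 1.18 at the lowest, 3.43 at the median and 4.93 at the highest, and in LW pigs it was 12.86 at the lowest, 14.12 at the median and 14.70 at the highest. No DD pig reached the lowest LW pig, as at 0.285% of the probes tested, and the difference had served to choose the probe. All 11 LW arrays measured it well above background, but only 1 of 10 DD arrays did, that of DD_23. There the processed signal was 23.6, against 2.21 to 4.41 in the other 9 DD pigs and 5293 to 32107 in the LW pigs.

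The log2 FC of A_72_P254237 was −10.69 (SE 0.34), but its size is not exact, since 9 of 10 DD arrays were not well above background. Each DD array was then set to the dimmest signal it flagged as well above background, unless the probe itself was brighter. By this rule the LW mean was 878.8-fold higher, or 9.78 on the log2 scale. This is not a strict lower limit, since it rests on the dimmest flagged spot of each array and on the background setting. With a background offset of 50, which compresses dim values, the log2 FC was −7.86. On chips 1, 2 and 3 the difference was −10.95, −10.90 and −10.14. The next lowest probe of the array, a probe of ECHDC1, was at −5.75.

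The LW pigs that were low at A_72_P402708 lay above the others at A_72_P254237. Within these groups the orders were not plainly opposed. Of the pigs high at A_72_P402708, LW_09 was highest and LW_24 lowest at both probes. Of those low there, the orders were mixed. LW_12 was lowest at A_72_P402708 and next to highest at A_72_P254237, whereas LW_14 was next to highest and highest. From the highest down, A_72_P254237 was 14.70 in LW_14, 14.50 in LW_12, 14.45 in LW_05, 14.30 in LW_22, 14.28 in LW_02 and 14.12 in LW_15. There followed 13.77 in LW_09, 13.68 in LW_04, 13.03 in LW_07, 12.87 in LW_18 and 12.86 in LW_24. The first 6 of this order were the same 6 pigs that lay at 9.67 or lower at A_72_P402708, and they were so on each of the 4 scales of the values. In the litter of LW_12 and LW_24, LW_12 had the lower value at A_72_P402708 and the higher at A_72_P254237, where the siblings differed by 1.64. Every other LW pair of siblings differed by at most 0.40 at A_72_P254237. The number 6 was chosen after the values were seen, so no test was made, and no correlation is given because the pigs form separate clusters.

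Of the 3 probes chosen by name, 2 passed the filter on low values, and both were significantly higher in DD pigs, against 11.0% of all 45228 probes called higher and 21.7% called in either direction. A_72_P172311, the probe that the scanner files name IFITM1, was 11.81 at the lowest, 12.60 at the median and 14.22 at the highest in DD pigs. In LW pigs it was 11.32, 12.41 and 12.99. The groups overlapped, and DD_06, DD_10 and DD_11 were the only 3 DD pigs higher than any LW pig. Its log2 FC was 0.69 (SE 0.20, limma adjusted p = 0.0230), and the means were 12.82 ± 0.72 (SD, n = 10) and 12.16 ± 0.57 (SD, n = 11).

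A_72_P380763, the probe matched to a bovine IFITM protein, ranged from 9.20 to 10.96 in DD pigs with a median of 9.55, and from 8.63 to 10.01 in LW pigs with a median of 9.35. Again 3 of 10 DD pigs were above all LW pigs, here DD_06, DD_21 and DD_23. Its log2 FC was 0.63 (SE 0.16, limma adjusted p = 0.0112), and the means were 9.83 ± 0.61 (SD, n = 10) and 9.22 ± 0.46 (SD, n = 11). DD_06 had the highest value of all 21 pigs at this probe, at that of IFITM1 and at that of LOC100519082.

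Both named probes differed in the same direction on each chip, by 0.61, 0.76 and 0.68 for A_72_P172311 and by 0.65, 0.68 and 0.54 for A_72_P380763 on chips 1, 2 and 3. The calls depended on the chips and on array brightness. Without chip 3 neither probe passed the threshold (limma adjusted p = 0.368 and 0.124). With a term for array brightness the log2 FC was 0.88 and 0.72 and the adjusted p in limma 0.0852 and 0.0775. Within breeds and chips, the pair correlated across the 21 pigs at r = 0.733, a description of values that share their RNA and hybridization.

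O7812, named Ifitm2, gave no measurable signal in either breed. It was not well above background on any of the 21 arrays, with log2 intensities from 2.99 to 3.86 in DD pigs and from 2.14 to 4.15 in LW pigs, and it was removed by the filter on low values. No fold change is given for it. Whether this sequence pairs with the pig transcript was not tested.

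Other genes that interferon induces were higher as well. Of 50 listed interferon-stimulated genes, 37 were tested, 32 of them were on the higher side in DD pigs and 5 on the lower, and 13 rose significantly in limma and 0 fell. Before adjustment, limma gave 20 of them a p below 0.05, all on the higher side. Over all 10400 genes tested, 11.3% were called higher and 12.6% lower. The list's median log2 FC was 0.51, against −0.06 over all genes. Both named IFITM probes thus lay above the median of the list. Interferon genes of these pigs were known to differ when the list was written, so the list is not independent evidence of its direction.

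OAS1, a sensor of double-stranded RNA, had the largest difference of the list, 1.88 with an SE of 0.61 (limma adjusted p = 0.0327). Its LW values were widely spread, at 9.34 ± 2.00 (SD, n = 11), and it missed the threshold without any 1 of DD_01, DD_06, DD_08, DD_21, DD_23, LW_12, LW_18 and LW_24 (limma adjusted p = 0.0514 to 0.0585). Without chip 1 its log2 FC was 0.91, and it missed the threshold there (limma adjusted p = 0.0976) and with no chip term (0.0595). MX1 and MX2, GTPases that act against viruses, differed by 1.46 with an SE of 0.37 (limma adjusted p = 0.0111) and by 1.41 with an SE of 0.31 (limma adjusted p = 0.00469), and for each of them 8 of 10 DD pigs exceeded every LW pig. IFIT5, which binds viral RNA, had a log2 FC of 1.08 with an SE of 0.28 (limma adjusted p = 0.0143). ISG15, a ubiquitin-like modifier, had 0.86 with an SE of 0.26 (limma adjusted p = 0.0249), and 5 of 10 DD pigs exceeded every LW pig. Without chip 3 none of these 5 genes passed, without chip 2 MX1, IFIT5 and ISG15 did not (limma adjusted p = 0.0718, 0.0758 and 0.145), and with a term for array brightness OAS1, IFIT5 and ISG15 did not (0.0915, 0.0651 and 0.0981). The other 8 genes that passed were XAF1, IFIT1, DDX58, HERC5, BST2, ZBP1, IRF7 and IFI44, with log2 FC between 0.51 and 0.83. The 24 genes that did not pass ran from −0.28 for PARP9 to 0.87 for OAS2.

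A single pig weighed on the size of this difference. The mean log2 intensity over the 37 genes ran from 8.95 to 10.95 in DD pigs, with a median of 9.36, and from 8.45 to 9.41 in LW pigs, with a median of 9.04. The highest was DD_06. Without DD_06 the list's median log2 FC was 0.31 and the log2 FC of the named IFITM probes 0.54 and 0.50, and both probes still passed the threshold. Without chip 3, 0 genes of the list passed in limma, where 13 had an unadjusted p below 0.05, and with array brightness as a covariate 5 did. Erythroid markers moved with the breeds too. Of their 7 tested genes, 6 were on the higher side and 4 rose significantly, against 11.3% of all genes (among them EPB42, CA1 and ALAS2), with a median log2 FC of 0.75. Their mean log2 intensity was 12.09 to 13.35 in DD pigs and 11.72 to 13.02 in LW pigs. All 7 were detected on every array, and their part in the result was not tested.

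The genes that carry the interferon signal differed less. IFNAR1 and IFNAR2, the receptor chains for type I interferon, had log2 FC of −0.14 (SE 0.12) and −0.22 (SE 0.10). IFNGR1 and IFNGR2, those for interferon gamma, had 0.03 (SE 0.13) and 0.32 (SE 0.16). The transcription factor genes STAT2 and IRF9 had 0.28 (SE 0.15) and 0.15 (SE 0.11). None of these 6 passed the threshold. IRF7, a factor that is itself induced by interferon, differed by 0.58 with an SE of 0.14 (limma adjusted p = 0.00863), and 3 of 10 DD pigs exceeded every LW pig. It missed the threshold without chip 2 (limma adjusted p = 0.0559), without chip 3 (0.317) and with a term for array brightness, where its log2 FC was 0.35 (0.402).

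Among 9 tested genes whose products bind or modify IFITM proteins, 1 was called, against 23.9% of all genes in either direction. This was CD9, a tetraspanin read by 9 probes, which differed by 0.65 with an SE of 0.13 (limma adjusted p = 0.00312), and in 6 of 10 DD pigs it exceeded every LW pig. It missed the threshold without chip 3, at 0.46 (limma adjusted p = 0.225), and with a term for array brightness, at 0.64 (0.0709). The B cell partners were close to 0, at −0.11 (SE 0.22) for CR2 and −0.05 (SE 0.15) for CD81. CR2 was well above background on 1 DD and 3 LW arrays only.

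Of the wider CD225 family, to which the IFITM proteins belong, 3 of 10 listed gene symbols were tested. TUSC5, known from fat tissue, had a log2 FC of 0.58 with an SE of 0.16 (limma adjusted p = 0.0193), but it was at 0.03 with a term for array brightness and at 0.32 without chip 3, and it missed the threshold there, without chip 2 and with no chip term (limma adjusted p = 0.0591 to 0.978 over these 4 settings). SYNDIG1L, known from the brain, had 0.54 with an SE of 0.09 (limma adjusted p = 0.000541). It missed the threshold without chip 3 (limma adjusted p = 0.0776), and it was at 0.29 with a normexp offset of 50 and at 0.82 with scaling to the 75th percentile. PRRT1 was at −0.19 (SE 0.12) and did not pass.

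Genes around the cluster did not share the difference of LOC100519082. Of 28 gene symbols listed as neighbours in mammals, 14 were tested, 8 on the higher side and 6 on the lower. Only IRF7 was called, against 23.9% of all genes in either direction. Their median log2 FC was 0.11. Of the 30 other genes that the annotation places within 200 kb of the cluster's genes, 9 were tested and 1 was called, lower in DD pigs, against 12.6% of all genes called lower. The other 8 were also among the 14 tested above, and they lay between −0.29 for PSMD13 and 0.50 for PGGHG. LOC100626247 and LOC102161418, the protein-coding genes next to LOC100519082, were not among those tested.

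The gene called was COX8H, which encodes the heart and muscle form of a subunit of cytochrome c oxidase. It spans 69199 to 70730, and its lower end is at −83.3 kb from that of LOC100519082. Averaged over its 2 probes, its log2 intensity was 3.76 at the lowest, 4.17 at the median and 4.56 at the highest in DD pigs. In LW pigs it was 4.60, 5.57 and 6.77, so that these averages did not overlap. At A_72_P393483 alone the groups did overlap, with DD pigs up to 4.53 and LW pigs from 4.44. At A_72_P223572 no DD pig reached the lowest LW pig, as at 0.285% of the probes tested. Its log2 FC was −1.57 (SE 0.19, limma adjusted p = 2.4e-05). No DD array measured either probe well above background, and 10 of 11 LW arrays measured each, so that the size of the difference is not exact. By the same rule as for A_72_P254237, the LW mean was 2.44-fold higher at A_72_P393483 and 3.17-fold higher at A_72_P223572. Again these are not strict lower limits. A normexp offset of 50 gave a log2 FC of −0.63, and scaling to the 75th percentile −2.46.

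Other genes moved with the named probes across pigs. With breed and chip means removed, the probes of other genes most like A_72_P172311 over the 21 pigs were 2 of ANXA1, an inhibitor of inflammation (r = 0.912 and 0.895), 2 of the cytokine IL27 (0.886 and 0.869) and 1 of BID (0.883). For A_72_P380763 they were 2 of CASP1, the protease of the inflammasome (0.901 and 0.887), and 1 each of IRF7 (0.890), FAM111B (0.878) and TREX1 (0.875). Over the 37 interferon-stimulated genes, the median r was 0.619 for A_72_P172311 and 0.643 for A_72_P380763. Over all other probes it was −0.044 and −0.015. DD_06, the highest pig at both named probes and in the mean of the 37 genes, is among the 21 pigs. How much of these r values rests on DD_06 was not tested. All pigs share the same arrays for both genes of a pair, and the highest of so many correlations are large by selection. None is given for A_72_P402708, whose LW values form separate clusters, or for A_72_P254237, which 9 of 10 DD arrays did not measure well above background.

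Across the array, 9809 of 45228 probes and 2483 of 10400 genes passed the threshold in limma. Of the probes called, 50.5% were higher in DD pigs, and 66.2% were with scaling to the 75th percentile of each array instead. DD arrays were dimmer, with a log2 75th percentile of the processed signal of 7.53 ± 0.54 (SD, n = 10) against 8.22 ± 0.38 (SD, n = 11), and between 44.7% and 63.8% of the probes of an array were well above background. Precision is limited by the number of pigs. Whole blood carried its usual markers, with HBB of red cells and GNLY of cytotoxic cells well above background on all arrays. Of all genes, 11.3% were called higher and 12.6% lower, the shares to set beside the counts that follow. T cell markers were on the lower side in DD pigs for 7 of 7 genes, with 3 called (CD3G, CD247 and CD3D), natural killer cell markers for 5 of 5 with 0 called in limma and 0 at an unadjusted p below 0.05, and B cell markers on the higher side for 6 of 6 with 1 called (PAX5). Monocyte markers had CSF1R called higher and CD163 lower, granulocyte markers had ELANE called higher, and platelet markers had PPBP called lower. The part of cell composition in the IFITM values was not tested.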

How the data were processed

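Whole blood of 21 pigs was profiled with 1 array per pig, on a pig array that Agilent made to order and that is read in a single colour. The authors discarded further arrays on the same 3 chips at quality control. The log2 values analysed here are the authors' deposited matrix, background corrected with normexp and quantile normalized, of which 2477 rows without a probe name on the array were left out. The authors deposited scanner files from Feature Extraction 10.7.3.1, with spot, local background and processed intensity not normalized between arrays and a flag for signal well above background. No probe was saturated. Breeds came from the labels, and sow, chip and age from the study's own text and list of animals.

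The 25% of probes with the lowest mean were removed. Differences were fitted with limma 3.58.1 in R 4.3.3, in a model of breed and chip, with pigs of the same sow blocked by duplicateCorrelation (consensus correlation −0.11 for probes), and adjusted by Benjamini-Hochberg over all probes, or over all genes with their probes averaged. The threshold was an adjusted p of 0.05. With its negative correlation, the sow block did not widen the SE. Without the block, 6871 probes and 1869 genes passed, against 9809 and 2483 with it. Symbols, loci, older symbols, accessions and identical sequences named 26492 probes for 12142 genes through RefSeq tables of Sscrofa11.1. The members and gene lists were chosen with earlier results of these data known. The genes named are, from each list, up to 5 with the largest difference past the threshold, the interferon receptors and factors, and CD81 and CR2. Results for some listed genes are not reported here. Likeness names 5 probes for each named member measured. Other settings were recomputed intensities, other backgrounds, scalings and filters, litter means, a model without sow or without chip, each chip and each pig left out, a brightness covariate and another variance moderation. The promoter search planned for interferon elements was not run, because no promoter sequences were used here.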

Additional observations from a re-analysis of the deposited data

Results flagged for a closer look

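Among the 10 DD pigs, DD_06 stood apart from the others in 6 interferon-stimulated genes, by a gap to the next pig that passed Dixon's critical value for 10 animals. Its log2 intensity was 15.28 for MX1, 12.29 for MX2, 16.09 for ISG15, 8.74 for DDX58, 11.92 for XAF1 and 7.13 for ZBP1, each the highest of the DD pigs. Of 23 genes and probes examined in this way, the IFITM probes among them, no other had such a pig, and chance gives about 1 in 20. All 6 genes were read in the same RNA of DD_06, so they do not count as 6 separate events against that rate. DD_06 had the highest value of the probes of IFITM1 and LOC100519082 and of A_72_P380763 as well, without passing the same limit there. The difference of LW pigs at LOC100519082 could not be examined in this way, since groups of more than 10 are not covered.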

How the results depend on the processing

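In the 13 other settings, the 4 member probes that passed the filter on low values kept their direction. Of these, A_72_P402708 and A_72_P254237 carry no test. The call of the named IFITM probes depended on chips and brightness. Both lost it with no chip term (log2 FC 0.66 for A_72_P172311 and 0.62 for A_72_P380763, 0 probes called), without chip 3 (0.65 and 0.65, 0 called) and with array brightness as a covariate (0.88 and 0.72, 0 called). Without chip 2, A_72_P380763 lost it at 0.56 and 1 probe was called. In these 3 settings that ended both calls, 2719, 649 and 1045 of all probes passed, and 8, 0 and 5 interferon-stimulated genes. The smaller number of arrays without a chip is part of each such setting, and the cause was not tested otherwise. An offset of 50 moved A_72_P254237 to −7.86 by raising dim values.

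With each pig left out in turn, both named probes stayed past the threshold in all 21 fits, at log2 FC of 0.54 to 0.79 and 0.50 to 0.72. A_72_P402708 ranged from 3.80 to 4.58 and A_72_P254237 from −10.93 to −10.48. Between 10 and 15 interferon-stimulated genes passed, with a median of 0.31 to 0.60. Of all probes, 5109 (without DD_21) to 13139 (without DD_06) passed, and the count fell by over 1.5 times without DD_10, DD_21, DD_23, LW_05, LW_12, LW_18, LW_22 or LW_24. Results for CD9, TUSC5, SYNDIG1L and COX8H under these settings were added after seeing the data. COX8H passed in each, whereas CD9 lost its call in 2 of the 14 settings tried for genes, TUSC5 in 4 and SYNDIG1L in 1, and none of the 4 did with a pig left out. No paired analysis was possible because no animal number occurs in both breeds.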
